A study of Mus musculus with 6 samples.

Results

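The 10 genes described here make NAD, phosphorylate it or handle nicotinamide, and their transcripts were measured in isolated mouse hepatocytes before and after partial hepatectomy (PHx). They are Nampt, Nmrk1, Naprt, Qprt, Nmnat1, Nmnat3, Nadsyn1, Nadk, Nnmt and Sirt1. These were chosen by name from knowledge of the pathway, with earlier results of these data known, and matched to the GENCODE M21 gene records of the count tables. All 10 were found among the 55450 genes in the tables, and all 10 passed the filter on low counts that left 17037 genes for testing. Bulk RNA-Seq libraries were made from hepatocytes of undamaged liver (0 h, n = 3) and of liver 48 h after PHx (48 h, n = 3). The mice were male C57BL/6 by the sample labels (C57BL/6J by the methods of the study) on a normal diet, with no transgene or drug in either group. The labels of all 6 samples put the mice for PHx at 10 to 12 weeks of age, the methods of the study give a slightly younger age, and neither gives a separate age for the 0 h mice. The 0 h livers had no operation, so an effect of surgery as such cannot be told apart from regeneration. Primary hepatocytes were freed by perfusing collagenase through the liver vessels, and each library stands for a separate preparation.

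NAD is the coenzyme that carries electrons in glycolysis, fatty acid oxidation and respiration, and it is also consumed by enzymes that cut it and release nicotinamide. Liver makes it from tryptophan by the kynurenine route, from nicotinic acid, and by salvage of nicotinamide or of nicotinamide riboside. Nicotinamide that is not salvaged is methylated by Nnmt and leaves the liver. After PHx the remaining hepatocytes enter the cell cycle, when DNA synthesis and repair call on NAD.

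Of the 10 genes, 3 were higher at 48 h (Nnmt, Nampt and Nmrk1) and 1 was lower (Nmnat3) by edgeR's quasi-likelihood test with a threshold of 0.05 on the adjusted p. The other 6 did not pass the test. Nnmt changed most, to 3.76 times its 0 h level, followed by Nampt at 1.72 times and Nmrk1 at 1.62 times, while Nmnat3 stood at 0.534 times. Among all genes tested, 21.4% were called higher, 19.3% lower and 40.7% in either direction, so a count of 4 in 10 is close to that of genes in general, and the account below is of single genes. The median log2 fold change of the 10 genes was 0.14, beside -0.00 over all genes tested.

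The 0 h libraries held 31419443 to 36346220 gene counts and the 48 h libraries 31684152 to 33093006. Levels are given in CPM, the counts of a gene scaled to the size of its library, with TMM factors that adjust for library composition. The floor of 3 counts was worth 0.0825 to 0.0955 CPM before the TMM factors were applied. Hepatocyte markers were far above those of every other cell type looked at. The 12 hepatocyte markers summed to 107133 to 125377 CPM at 0 h and 72488 to 89447 CPM at 48 h, and 4 of them were called lower and 1 higher (41.7%, near the 40.7% of all genes tested, against which the counts of the other marker lists are also to be read). The 12 Kupffer cell and macrophage markers summed to 91.8 to 137 CPM at 0 h and 118 to 148 CPM at 48 h (2 called higher, 1 lower), and the 12 stellate cell and fibroblast markers to 77.1 to 125 and 70.7 to 85.4 CPM (2 higher, 1 lower). The 12 endothelial markers fell, from 277 to 427 CPM at 0 h to between 199 and 220 CPM at 48 h, and all 12 were called lower. Of these, 7 were called in all 15 alternatives, and Tek was called in the fewest, 9, followed by Pecam1 in 10, and the libraries of Pecam1 and Clec4g overlapped between the time points. The 10 cholangiocyte markers summed to 65.4 to 94.0 CPM at 0 h and 61.7 to 72.7 CPM at 48 h, with Krt7, Epcam, Cftr and Tspan8 at 3 counts or fewer in every library (1 called higher, 1 lower). The 12 neutrophil markers summed to 1.13 to 1.23 and 1.04 to 1.54 CPM, with 9 of them, S100a8 and S100a9 included, at 3 counts or fewer in every library. The 10 lymphocyte markers summed to 2.92 to 4.29 and 1.57 to 2.32 CPM. In both of these lists 1 marker passed the filter and was called lower (Csf3r among the neutrophil markers). Of the neutrophil granule genes, Camp had 2, 3 and 0 counts at 0 h and 6, 19 and 26 at 48 h, and Elane had 5, 1 and 3 counts and then 13, 16 and 8. Neither passed the filter, and without it both were called higher (adjusted p = 0.000201 for Camp and 0.0218 for Elane, edgeR). The cholangiocyte marker Sctr, with 0 counts in each 0 h library and 3, 3 and 4 at 48 h, was also called higher without the filter (adjusted p = 0.0313, edgeR). These genes were picked after their values were seen and have few counts at 0 h, so the calls add nothing on cell types. For the summed levels, the two-sided exact permutation test gave p = 0.1, the lowest possible with 3 libraries against 3, for hepatocyte, endothelial and lymphocyte markers. It gave 0.3 to 0.7 for the other lists. The part of other cell types in the changes of the 10 genes was not tested, and in bulk libraries fewer cells of a type and less RNA per cell cannot be told apart.

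Sequence before the start site was available from RefSeq (GRCm38.p6) for 8 of the 10 genes, in 10 windows of 250 bases. Nnmt and Naprt had no entry in this table. Of the 4 genes that passed the test, Nampt and Nmnat3 have a window that touches no annotated exon, and these are shown because the genes moved in opposite directions. Both windows lie within the longer GENCODE record of the gene. They are printed 5′ to 3′ on the strand of the gene, with each GC box (GGGCGG on either strand) in capitals.
Nampt, chr12:32820085-32820334, plus strand: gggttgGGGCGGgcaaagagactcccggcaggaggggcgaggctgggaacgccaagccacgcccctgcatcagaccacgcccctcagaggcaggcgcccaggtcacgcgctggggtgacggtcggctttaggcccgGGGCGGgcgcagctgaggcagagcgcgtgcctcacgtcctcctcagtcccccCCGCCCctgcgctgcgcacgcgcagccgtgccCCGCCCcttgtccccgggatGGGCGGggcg
Nmnat3, chr9:98296320-98296569, plus strand: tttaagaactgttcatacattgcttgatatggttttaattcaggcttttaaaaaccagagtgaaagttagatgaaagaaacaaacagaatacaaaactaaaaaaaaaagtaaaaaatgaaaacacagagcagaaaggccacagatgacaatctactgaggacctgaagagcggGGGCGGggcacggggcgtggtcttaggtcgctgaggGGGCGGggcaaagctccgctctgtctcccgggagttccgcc
The Nampt window, 75.6% G and C, holds 5 GC boxes, and the Nmnat3 window, 45.6% G and C, holds 2. A GC box occurs in 32.7% of the 32851 windows of this length in the table, and this motif was added after the sequences had been seen. Neither window holds an E-box (CACGTG, 6.02% of all windows), a STAT motif (TTCNNNGAA, 7.02%), a C/EBP motif (TTGCNNAA, 9.56%) or a cAMP response element (TGACGTCA, 1.55%) on either strand.

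Among the other windows of these genes, E-boxes were found in those of Sirt1 and Nadk and a STAT motif in that of Qprt, 3 genes that did not pass the test between the time points. The Sirt1 and Nadk windows with an E-box lie within the longer GENCODE record of the gene, and all 3 windows touch an exon of their own gene. The other Nadk window (chr4:155562131-155562380), at the start of the GENCODE record, holds no E-box. The 30 bases around each match are shown, with the motif in capitals, to place the matches against the RefSeq start site of that window. No E-box shown overlaps a GC box.
Sirt1, chr10:63339133-63339162, minus strand, motif beginning 115 bases before the start: gcggcgcccggcCACGTGacccggcgtgtt
Sirt1, chr10:63339061-63339090, minus strand, motif beginning 43 bases before the start: ggaggggcgggtCACGTGacggggtttaaa
Nadk, chr4:155563763-155563792, plus strand, motif beginning 40 bases before the start: cgccgctctcccCACGTGccctgcagcgca
Qprt, chr7:127122030-127122059, minus strand, motif beginning 19 bases before the start: ccagcctcagcTTCTGGGAAcattcgacct
These are matches of letters only, and binding was not measured in the libraries analysed here.

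Nampt (ENSMUSG00000020572.8; chromosome 12, 32819545 to 32853349, plus strand, GRCm38), the rate-limiting enzyme of salvage, which turns nicotinamide into nicotinamide mononucleotide (NMN), rose at 48 h. Its levels were 23.7, 20.6 and 28.9 CPM in the 3 libraries at 0 h and 33.5, 45.3 and 46.9 CPM at 48 h. Every library at 48 h was above every library at 0 h, by the least in replicate 1. The log2 fold change was 0.78 (standard error, SE, 0.159; adjusted p = 0.00304, edgeR). It ranged from 0.66 to 0.99 over the 15 alternatives described under processing, and the adjusted p was at most 0.0151 in them.

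Nmrk1 (ENSMUSG00000037847.14; chromosome 19, 18631950 to 18652428, plus strand), the kinase that makes NMN from nicotinamide riboside, rose to a similar degree from a lower level. It stood at 11.0, 11.5 and 10.5 CPM at 0 h and at 13.8, 19.4 and 20.1 CPM at 48 h. The 0 h libraries were close together and all lay below those at 48 h, of which replicate 1 was again the lowest. Its log2 fold change was 0.69 (SE 0.153, adjusted p = 0.0047, edgeR). The kinase of muscle, Nmrk2, had 0 counts in all 6 libraries, so its level was under the floor.

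Naprt and Qprt feed the second entry to NAD, through nicotinic acid mononucleotide. Naprt (ENSMUSG00000022574.7; chromosome 15, 75890956 to 75894481, minus strand), which uses nicotinic acid, had 58.4, 55.0 and 59.1 CPM at 0 h and 68.1, 71.2 and 65.0 CPM at 48 h. The time points did not overlap, but the difference was small and did not pass the test (log2 fold change 0.24, SE 0.0956, adjusted p = 0.0651, edgeR). With library size in place of TMM it passed (0.45, adjusted p = 0.00456, edgeR). Eef1d, on the same strand, overlaps 11.8% of the exon bases of Naprt, where reads could be left uncounted as ambiguous.

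Qprt (ENSMUSG00000030674.5; chromosome 7, 127107114 to 127122226, minus strand), which takes quinolinate from the kynurenine route, had 131, 93.5 and 143 CPM at 0 h and 128, 121 and 107 CPM at 48 h. The range at 48 h lay within that at 0 h. Its log2 fold change was -0.05 (SE 0.158, adjusted p = 0.837, edgeR).

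The Nmnat enzymes join the mononucleotide to AMP, Nmnat1 in the nucleus and Nmnat3 in mitochondria. Nmnat3 (ENSMUSG00000032456.13; chromosome 9, 98287435 to 98420438, plus strand) fell from 7.49, 5.09 and 6.51 CPM at 0 h to 4.13, 3.64 and 2.43 CPM at 48 h. All libraries at 48 h lay below those at 0 h, at 85 to 139 counts each, so that its counting error is the largest of the 10 genes. The log2 fold change was -0.90 (SE 0.227, adjusted p = 0.00944, edgeR), and it ranged from -1.07 to -0.71 over the alternatives.

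Nmnat1 (ENSMUSG00000028992.13; chromosome 4, 149467572 to 149485202, minus strand) had 9.02, 8.51 and 10.0 CPM at 0 h and 9.23, 9.09 and 9.17 CPM at 48 h. The libraries at 48 h lay inside the 0 h range, and the log2 fold change was -0.00 (SE 0.129, adjusted p = 0.984, edgeR). Within each library, the ratio of Nmnat3 to Nmnat1, in CPM per kilobase of exon, was 0.504, 0.363 and 0.394 at 0 h and 0.271, 0.243 and 0.161 at 48 h. The ratio at 48 h was 0.528 times that at 0 h in the geometric mean, with no overlap (exact permutation test, two-sided, p = 0.1, the lowest possible with 3 libraries against 3). Nmnat1 hardly moved, so the ratio repeats the fall of Nmnat3 and is not a separate result. Nmnat2, the form of neurons, had 5 to 19 counts per library and was not tested.

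Nadsyn1 (ENSMUSG00000031090.14; chromosome 7, 143795584 to 143822849, minus strand), which amidates the nicotinic acid dinucleotide to NAD, had 18.7, 24.9 and 22.9 CPM at 0 h and 19.4, 16.9 and 16.0 CPM at 48 h. The highest library at 48 h was above the lowest at 0 h. The difference did not pass the test (log2 fold change -0.35, SE 0.135, adjusted p = 0.0638, edgeR), and it passed, as lower, in 3 of the 15 alternatives, 1 of them without 0 h replicate 1 (-0.46, adjusted p = 0.0249, edgeR).

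Nadk (ENSMUSG00000029063.16; chromosome 4, 155562378 to 155591001, plus strand), the cytosolic kinase that turns NAD into NADP, had 133, 111 and 145 CPM at 0 h and 133, 151 and 134 CPM at 48 h. The time points overlapped (log2 fold change 0.10, SE 0.127, adjusted p = 0.585, edgeR). The mitochondrial NAD kinase Nadk2 was at 109.1 ± 6.93 (SD, n = 3) and 111.2 ± 9.27 (SD, n = 3) CPM and did not pass either (0.03, adjusted p = 0.87, edgeR).

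Nnmt (ENSMUSG00000032271.13; chromosome 9, 48591877 to 48605153, minus strand), which methylates nicotinamide with S-adenosylmethionine and so removes it from salvage, rose more than any other of the 10 genes. It had 34.4, 25.8 and 37.0 CPM at 0 h and 176, 110 and 79.3 CPM at 48 h. The lowest library at 48 h was above the highest at 0 h, and the libraries at 48 h were far apart, with a coefficient of variation of 40.5% against 18.1% at 0 h. The log2 fold change was 1.91 (SE 0.257, adjusted p = 0.000228, edgeR), and 6.16% of all genes tested had a larger absolute change. Without 48 h replicate 1, the highest library, it was 1.55.

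Sirt1 (ENSMUSG00000020063.16; chromosome 10, 63319005 to 63381704, minus strand), a nuclear deacetylase that cleaves NAD and frees nicotinamide, had 13.0, 12.2 and 12.6 CPM at 0 h and 15.1, 13.5 and 14.3 CPM at 48 h. The time points did not overlap, yet the change was small and did not pass the test (log2 fold change 0.18, SE 0.114, adjusted p = 0.24, edgeR). With library size only it passed as higher (0.38, adjusted p = 0.0208, edgeR). For 6 of the 10 genes all libraries of one time point lay on one side of the other, beside 52.7% of all genes tested.

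**Figure D1:**
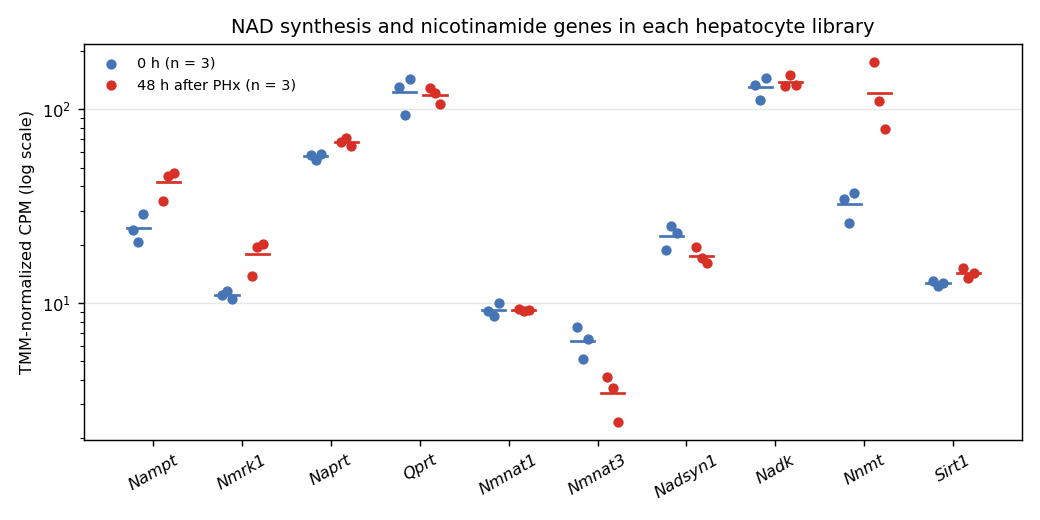
TMM-normalized CPM (log axis) of the 10 genes in each of the 6 libraries; points are libraries, blue for 0 h and red for 48 h after PHx, and short lines are means of 3. Nnmt moves from 25.8 to 37.0 CPM up to 79.3 to 176 CPM, and Nmnat3 moves down, from 5.09 to 7.49 CPM to between 2.43 and 4.13 CPM.

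**Figure D2:**
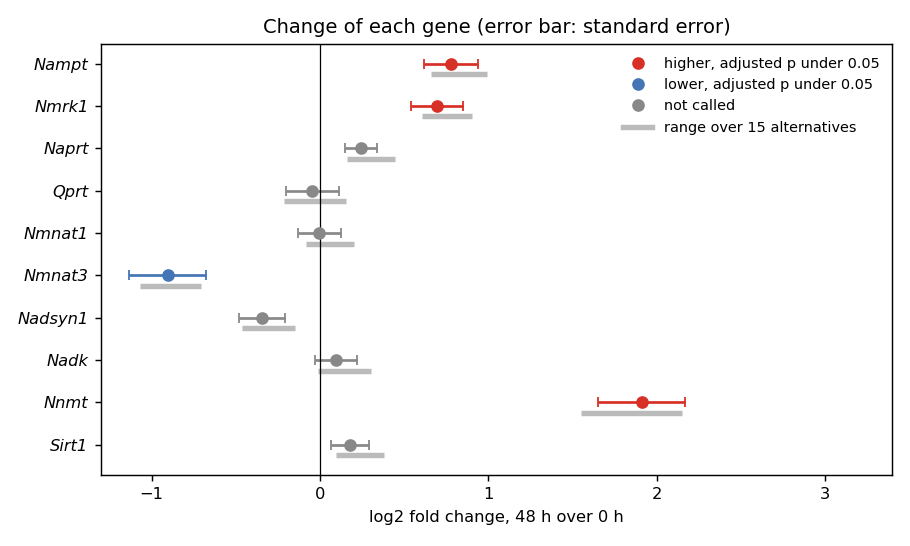
Log2 fold change of each gene, 48 h over 0 h, with its standard error from edgeR; red and blue points passed the test as higher and lower, grey points did not, and the grey bar below each point spans the 15 alternatives. The bars of Nampt, Nmrk1, Nnmt and Nmnat3 stay on 1 side of 0, while those of Qprt, Nmnat1 and Nadk cross it.

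Levels were compared between genes per kilobase of exon, with all annotated exons of a gene merged, so that a gene with long unused exons is read too low. At 0 h, Qprt was highest at 46.3 ± 9.78 (SD, n = 3) CPM per kilobase, followed by Nadk at 34.7 ± 4.58, Naprt at 24.5 ± 0.928 and Nnmt at 20.6 ± 3.72. Then came Nadsyn1 at 6.70, Nampt at 4.83, Nmnat1 at 3.02, Nmrk1 at 2.98, Sirt1 at 2.37 and Nmnat3 at 1.27 CPM per kilobase. Neighbours whose libraries overlapped at 0 h were Qprt and Nadk, Naprt and Nnmt, Nadsyn1 and Nampt, and Nmnat1 and Nmrk1. At 48 h, Nnmt was first at 77.3 ± 31.3 (SD, n = 3) CPM per kilobase, with its lowest library at 50.3 against 48.5 for the highest of Qprt. Nampt, at 8.29 CPM per kilobase, stood above Nadsyn1, at 5.28, and Nmrk1, at 4.82, above Nmnat1, at 3.02. Only the libraries of Nadsyn1 and Nmrk1 overlapped as neighbours at 48 h. Qprt, Nadk and Naprt kept the same order among themselves, and Sirt1 and Nmnat3 were the lowest at both times.

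Nampt and Nnmt both act on nicotinamide, the former for reuse and the latter for removal, and their balance was taken within each library, where scaling between libraries plays no part. Per kilobase, Nnmt was 4.65, 4.01 and 4.11 times Nampt at 0 h and 16.8, 7.81 and 5.43 times at 48 h. The ratio was higher in each library at 48 h, by 2.10 times in the geometric mean (exact permutation test, two-sided; p = 0.1, again the lowest possible). The size rested on 48 h replicate 1: the log2 difference of 1.07 became 0.62 without it.

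The kynurenine route, which leads from tryptophan to the quinolinate used by Qprt, had more genes lower than higher at 48 h. Of the 11 genes listed, 10 were tested, 6 were lower and 2 higher, beside 19.3% lower and 21.4% higher among all genes tested, and the median log2 fold change was -0.79. Tdo2, the tryptophan dioxygenase of hepatocytes that opens the route, fell from 725.8 ± 59.9 (SD, n = 3) to 221.8 ± 30.4 (SD, n = 3) CPM (log2 fold change -1.71, SE 0.145, adjusted p = 1.01e-05, edgeR). Ido2, a related dioxygenase, fell by 1.51 and Afmid, the formamidase of the next step, by 1.65 on the log2 scale. Ido1 had 0 counts in all libraries. Gm20708, on the same strand, overlaps 44.2% of the exon bases of Afmid, so its counts are uncertain.

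Further along, Haao, which makes the precursor of quinolinate, fell by 0.95 and Kynu, the kynureninase, by 0.93 on the log2 scale. Kmo, which hydroxylates kynurenine, rose by 0.58 (SE 0.136, adjusted p = 0.00636, edgeR). Kyat1, an aminotransferase that draws kynurenine off the route, fell by 0.44 on the log2 scale (adjusted p = 0.0223, edgeR), and its adjusted p went above the threshold in 5 of the 15 alternatives, the highest being 0.134. These were library size only and the fits without 0 h replicate 1, 0 h replicate 3, 48 h replicate 2 or 48 h replicate 3.

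Acmsd, the decarboxylase that takes the precursor of quinolinate away to oxidation and so competes with the Qprt step, rose. It had 32.5, 18.0 and 37.4 CPM at 0 h and 129, 87.8 and 76.9 CPM at 48 h, without overlap (log2 fold change 1.74, SE 0.262, adjusted p = 0.000468, edgeR). Per kilobase, Acmsd was 0.232, 0.180 and 0.244 times Qprt at 0 h and 0.942, 0.678 and 0.672 times at 48 h. Tdo2 was 42.3, 41.5 and 33.8 times Nampt at 0 h and 7.95, 5.86 and 7.14 times at 48 h. These last 2 ratios were chosen after the values of their genes were known and are given without a test. The ratios with a test were also chosen with earlier results of these data known.

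**Figure D3:**
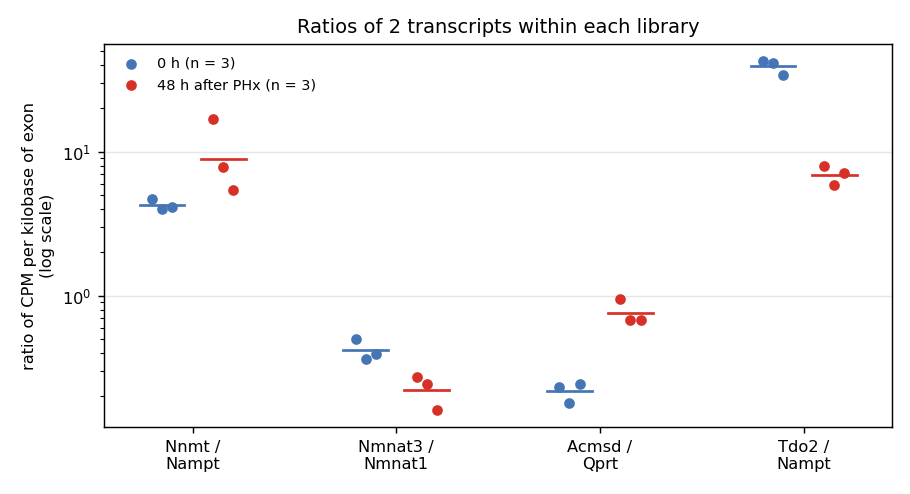
Ratio of the CPM per kilobase of exon of a pair of transcripts within each library (log axis), blue for 0 h and red for 48 h after PHx, with the geometric mean of 3 libraries as a line. Nnmt over Nampt and Acmsd over Qprt are higher at 48 h, and Nmnat3 over Nmnat1 and Tdo2 over Nampt are lower, in every library.

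Of 10 other genes of NAD synthesis and transport listed, Nnt has 2 overlapping gene records and was left out, 6 were tested, and Pnp and Pnp2 were higher and none lower, beside 21.4% higher and 40.7% called in either direction among all genes tested, a count near that of genes in general. Pnp2 passed the filter on low counts only through its 48 h libraries, so its call adds nothing to the count for the list. Pnp, a phosphorylase that can split nicotinamide riboside, had 31.2 ± 6.56 CPM (SD, n = 3) at 0 h and rose to 54.9 ± 10.7 CPM (SD, n = 3) (log2 fold change 0.81, adjusted p = 0.00442, edgeR). Pnp2, its near copy, had 9, 4 and 2 counts at 0 h and 39, 25 and 28 at 48 h, and reads could have been shared or lost between the pair. Gm49342, on the same strand, overlaps 18.0% of the exon bases of Pnp.

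Genes that clear nicotinamide or supply methyl groups to Nnmt had 8 members tested, of which 5 were lower and 1 higher, beside 19.3% and 21.4% of all genes tested, with a median log2 fold change of -0.67. Aox3, an aldehyde oxidase of the kind that oxidises methylated nicotinamide to pyridones, had 1290, 1060 and 1017 CPM at 0 h and 213, 284 and 497 CPM at 48 h. All 3 libraries at 48 h were below those at 0 h, with a log2 fold change of -1.76 (SE 0.272, adjusted p = 0.000555, edgeR). Aox1 fell by 1.03 and Cyp2e1, which can oxidise nicotinamide, by 1.71 on the log2 scale. Gnmt, which uses up S-adenosylmethionine in liver, fell by 0.74 (adjusted p = 0.0187, edgeR), and did not pass without 0 h replicate 1 or 0 h replicate 3 (adjusted p at most 0.0671). Ahcy, which removes the product of methylation, fell by 0.60 (adjusted p = 0.0247, edgeR), and passed in 11 of the 15 alternatives (highest adjusted p 0.0838). Mat2a, the S-adenosylmethionine synthetase of dividing cells, rose by 0.69 (adjusted p = 0.00795, edgeR), from 74.3 ± 10.3 (SD, n = 3) to 119.9 ± 25.3 (SD, n = 3) CPM. Mat1a, the form of adult liver, did not pass the test (0.55, adjusted p = 0.172, edgeR). Its log2 fold change ranged from 0.13 to 0.84 over the 15 alternatives, and it passed in 2 of them.

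Among enzymes that consume NAD, the 6 other sirtuins had 4 lower and none higher, beside 19.3% lower and 21.4% higher among all genes tested, with a median log2 fold change of -0.46. Sirt7, a nucleolar deacylase, fell from 41.4 ± 1.73 (SD, n = 3) to 19.6 ± 0.626 (SD, n = 3) CPM (log2 fold change -1.08, SE 0.0973, adjusted p = 1.52e-05, edgeR). Sirt3, the main mitochondrial deacetylase, fell from 48.7 ± 1.90 (SD, n = 3) to 25.6 ± 3.23 (SD, n = 3) CPM (-0.93, adjusted p = 0.000132, edgeR), with Psmd13 and Ric8a on the other strand over 12.7% of its exon bases. The mitochondrial Sirt4 and Sirt5 fell by 0.46 and 0.45 on the log2 scale (adjusted p = 0.0298 and 0.0463, edgeR), and 2 of the 4 calls were left without 0 h replicate 1, 0 h replicate 3, 48 h replicate 1 or 48 h replicate 3, and with library size only.

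Of 18 PARPs and NAD hydrolases, which use NAD for ADP-ribosylation or cut it, 17 were tested, 3 were higher and 2 lower (29.4%, beside 40.7% of all genes tested; median log2 fold change -0.06). Parp1, Parp2 and Parp3, which act at DNA breaks, rose by 0.40, 0.52 and 0.36 on the log2 scale (adjusted p = 0.0302, 0.0146 and 0.0335, edgeR), and Parp6 and Parp14 fell by 0.45 and 0.41 (adjusted p = 0.017 and 0.032). These calls were near the threshold. Leaving out any 1 of the 6 libraries reduced the 5 calls to 3, or to 1 without 48 h replicate 1. Cd38, a main NAD hydrolase of tissues, was at 7.79 ± 2.34 (SD, n = 3) and 6.92 ± 0.694 (SD, n = 3) CPM and did not pass the test (-0.17, adjusted p = 0.561, edgeR).

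**Figure D4:**
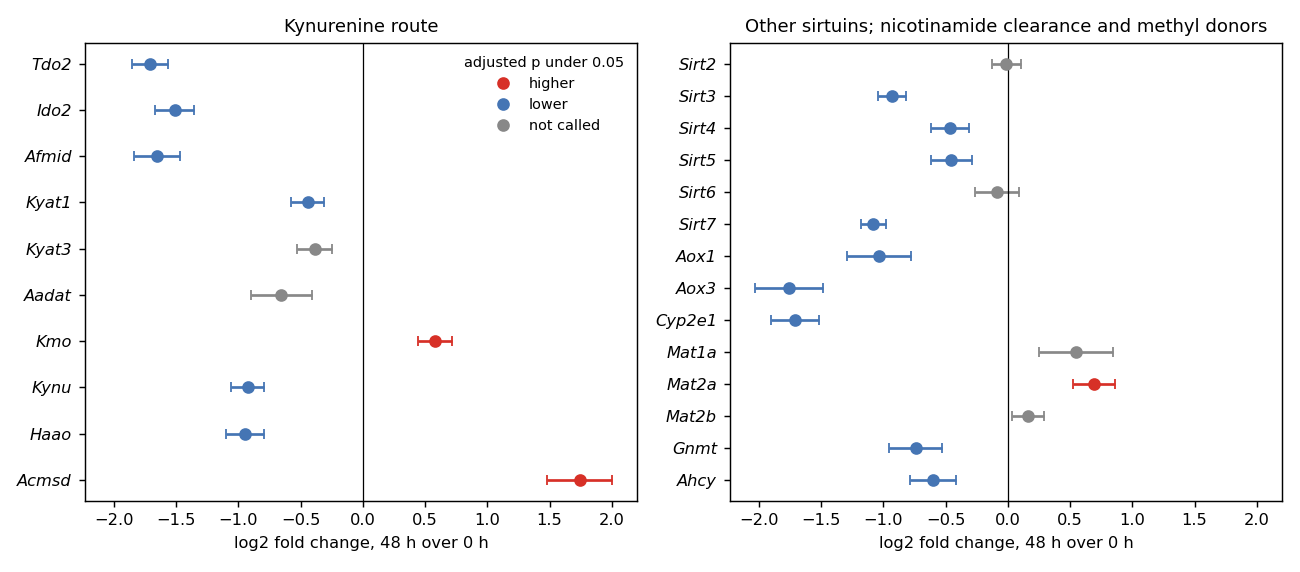
Log2 fold change, 48 h over 0 h, with its standard error from edgeR for the tested genes of the kynurenine route (left) and for the other sirtuins and the genes of nicotinamide clearance and methyl donors (right); red points passed the test as higher, blue as lower, grey did not. Tdo2, Afmid and Ido2 lie at -1.71 to -1.51, opposite Acmsd at 1.74.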

How the data were processed

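Bulk RNA-Seq counts were read from 1 table per library, 3 at 0 h and 3 at 48 h after PHx, grouped by the sample labels. The authors deposited raw read counts per gene in the layout of htseq-count, with no normalization. The submitters' processing notes name FastQC 0.11.5, Trim Galore 0.6.4, STAR 2.6, HTSeq 0.12.4 and DESeq2 and the mm10 build, and the counting mode and strand setting are not given in the sources used here. Lines for uncounted reads were left out: reads on no gene were 24.3% to 32.7% of a library and ambiguous reads 4.27% to 5.29%. Multiply aligned reads are listed as 0, so reads of near-identical genes may have been lost. All 55450 gene identifiers matched GENCODE M21 (GRCm38), which gave names, positions and merged exon lengths.

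Time points were compared with edgeR 4.0.16 in R 4.3.3 (TMM, glmQLFit and glmQLFTest, no covariate beside time). A gene was tested if 3 or more libraries had 10 or more counts, which left 17037 genes, and p-values were adjusted over all of them by Benjamini-Hochberg with a threshold of 0.05. Standard errors are the log2 fold change divided by the square root of the F statistic. For ratios and marker sums the test was an exact permutation test, two-sided. Floors of 3 counts cover counting error only, since reads carry no molecular identifiers.

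The 15 alternatives were DESeq2 1.42.0, limma-voom (limma 3.58.1), DESeq2 size factors, library size only, upper quartile, TMM from protein-coding genes, no low-count filter, at least 1 CPM in 3 libraries, the replicate number as a block, and leaving out each library. The genes and lists were chosen with earlier results of these data known. The rule named all 10 genes and, from each related list, up to 4 called genes in each direction by size of change. Kynu, Kyat1, Ahcy, Camp, Elane, Csf3r, Sctr and the genes named as not passing were added after their values were seen.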

Additional observations from a re-analysis of the deposited data

How the results depend on the processing

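Nampt, Nmrk1, Nnmt and Nmnat3 kept their direction and passed the test in all 15 alternatives. Library size only shifted the median log2 fold change of all genes tested to 0.20 and raised the members called higher from 3 to 5, with Naprt and Sirt1. It took the share of higher genes among all calls from 52.5% to 71.6%. Genes called lower rose from 1 to 2, with Nadsyn1, under upper quartile scaling, under TMM from protein-coding genes and without 0 h replicate 1, and stayed at 1 in the other fits without 1 library (range 1 to 2). The calls of the other sirtuins dropped from 4 to 2 with library size only and with the replicate block, and to between 2 and 4 when 1 library was left out. The replicate block left 3 of the 10 genes higher and 1 lower, as in the unpaired fit, and its numbers do not pair the libraries (correlations of deviations from -0.138 to 0.0335; 1 of 3 pairs matched best with its own number). Calls among other NAD synthesis and transport genes fell from 2 to 1 with at least 1 CPM in 3 libraries, where Pnp2 was not tested, and were 1 to 3 in the fits without 1 library. Those among PARPs and NAD hydrolases were 1 to 3 in these fits. On the kynurenine route, calls numbered 8 in the main fit and 7 to 10 over the 15 alternatives.

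Log2 fold changes near 0 changed sign: Nmnat1 to 0.20 and Qprt to 0.16 with library size only, Nmnat1 to 0.056, 0.0039 and 0.0020 without 0 h replicate 3, 48 h replicate 2 and 48 h replicate 3, Qprt to 0.071 and 0.031 without 0 h replicate 3 and 48 h replicate 3, and Nadk to -0.014 without 0 h replicate 2. Over the 6 fits without 1 library, Nmnat1 spanned -0.066 to 0.056, Qprt -0.22 to 0.071 and Nadk -0.014 to 0.17. As shares of gene counts, hepatocyte markers had a log2 ratio of -0.37 in place of -0.57. Every other marker list moved in the same direction, such as cholangiocyte markers from -0.27 to -0.066 and Kupffer cell and macrophage markers from 0.13 to 0.33. The TMM factors, which library size only and shares of gene counts leave out, were 0.914 to 0.950 at 0 h and 1.02 to 1.11 at 48 h. The cause of the shifts in this paragraph was not tested. Counts of 85 to 220 per library limit Nmnat3.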

Other observations

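The 3 libraries at 48 h differed among themselves in several of these genes, a pattern noticed after the values were seen and not tested. Replicate 1 was the highest of the 3 for Nnmt (176 CPM against 110 and 79.3), Acmsd (129 against 87.8 and 76.9), Pnp (64.5 against 56.9 and 43.4) and Mat1a (3855 against 2400 and 1459). It was the lowest for Nampt (33.5 against 45.3 and 46.9), Nmrk1 (13.8 against 19.4 and 20.1), Aox1 (47.8 against 79.4 and 118) and Aox3 (213 against 284 and 497). At 0 h, Mat1a was at 1748, 1455 and 2079 CPM and Aox1 at 168, 173 and 162 CPM. The difference was not particular to these genes. Over all genes tested, 48 h replicates 1 and 3 differed most of all pairs within a time point (mean chi-square per gene 76.1, beside 25.8 to 48.1 between 0 h libraries). Among hepatocyte markers, replicate 1 was highest at 48 h for Fgb (12525 CPM against 7731 and 6347) and Cps1 (8277 against 6971 and 4504). It was lowest for Ttr (2333 against 2622 and 2470) and Apoa1 (3364 against 3515 and 3754).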
